A study of Mus musculus with 4 samples.

Results

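Shh encodes Sonic hedgehog, a secreted signalling protein. The examined region was the Shh gene with its immediate flanks on a custom mouse tiling array. Its members were the 344 non-control probes that lie wholly within chromosome 5: 28755001-28800000 (mm9), of 48316 non-control probes in all and of 12390 in the Shh tile, the unbroken stretch of probes around the gene (no gap over 50 kb). One further probe starts in the interval and ends past it, and was not counted as a member. Shh was placed at about 28783000-28794000, and the RefSeq gene table lists Shh with a length of 10262 bases. The gene body held 136 probes. Shh is read from higher to lower coordinates, so the 81 probes at 28794001-28800000 are called the upstream flank here and the 127 probes at 28755001-28782999 the downstream flank. No mm9 annotation was used, and exons, introns and UTRs were therefore not placed.

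The groups were 46c neural progenitor cells (NPC), obtained by differentiation with the N2B27 protocol, and the undifferentiated 46c embryonic stem cells (ESC), with 2 arrays each. 46c is a mouse ESC line that carries a fluorescent reporter of neural commitment, and both groups derive from it. Chromatin was prepared from nuclei without RNase, and its RNA was amplified, labelled with Cy3 by random priming and hybridised in 1 colour, a procedure that does not keep the strand, so sense and antisense RNA cannot be separated. The labels do not state whether the 2 arrays of a cell type were grown as separate cultures, and each p-value therefore reflects array-to-array spread that may be technical.

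Sonic hedgehog acts as a morphogen. It binds the receptor Patched, which releases Smoothened and lets Gli transcription factors act on target genes. In the embryo Shh is produced by the notochord, the floor plate of the neural tube and the posterior limb bud, and many of its enhancers lie far upstream in a large intergenic region. The comparison asked, within the stated aim of profiling nuclear RNA around Shh, whether RNA over the gene and over each flank differs between NPC and ESC.

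All arrays came from 1 slide and 1 scan. Over the whole array, the share of probes well above background was 54.1% and 54.3% in NPC 1 and NPC 2, against 42.5% and 44.6% in ESC 1 and ESC 2. Negative control spots passed the same limit, the scanner program's mark for a spot well above background, at 1.36% to 2.42%. The labelled cell types could not be checked against marker genes, because the probes carry positions and no gene names.

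Signal over the Shh gene body was detected in both cell types, and more of its probes were above background than in either flank. In the gene body the share of probes well above background was 57.4% in NPC 1 and 72.8% in NPC 2, against 57.4% in ESC 1 and 60.3% in ESC 2. NPC 2 was the highest, and NPC 1 equalled ESC 1, so the groups overlapped. Means were 65.1% ± 10.9 in NPC and 58.8% ± 2.08 in ESC (SD, n = 2 each). In this bulk RNA, fewer cells with the transcript and less transcript per cell cannot be told apart.

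The upstream flank had 38.3% and 46.9% of its probes above background in NPC 1 and NPC 2, against 43.2% and 44.4% in ESC 1 and ESC 2. The ESC values fell between those of NPC. In the downstream flank the shares were 36.2% and 38.6% in NPC, against 41.7% and 42.5% in ESC, and here both NPC arrays lay below both ESC arrays. That direction depended on the limit: above the 99th percentile of the negative control spots the mean shares were 29.9% in NPC and 22.0% in ESC downstream, and 34.6% and 23.5% upstream, so NPC was the higher in both flanks. Exact permutation of 2 against 2 arrays cannot go below p = 0.333, and no other test of the shares was made. The rest of the Shh tile, with 12046 probes, had 40.3% and 41.7% in NPC 1 and NPC 2, against 43.4% and 46.8% in ESC 1 and ESC 2. The downstream flank thus lay below the tile and the gene body above it on every array, and the upstream flank on either side of it.

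Of the 136 gene body probes, 62 were above background on all 4 arrays and 27 on none, or 45.6% and 19.9%, against 29.9% and 43.2% in the rest of the tile. The others were marked on some arrays only. In the upstream flank 25 of 81 were above background on all arrays and 31 on none, and in the downstream flank 35 of 127 and 62. Probes marked on both NPC arrays and on neither ESC array numbered 1 in the whole region, in the gene body, and the reverse pattern was found for 3, all in the flanks, of which 1 had an outlier mark on ESC 1. In the rest of the tile these patterns made up 0.855% and 2.29% of the probes, against 0.291% and 0.872% in the Shh region.

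The single probe marked on both NPC arrays and on neither ESC array lies at 28793026-28793085, near the upstream edge of the gene body. That edge is approximate, and the start of Shh transcription was not placed. Its intensity was 15.8 and 102 in NPC 1 and NPC 2, against 8.34 and 13.8 in ESC 1 and ESC 2. Because it was not well above background in ESC, its level there has only a bound, taken from the lowest signal above background on each array, and the NPC mean was at least 2.46-fold higher. That ratio rested mainly on NPC 2, and the probe did not pass the test (limma adjusted p = 0.402).

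Signal in the gene body was broken and did not run continuously from end to end. Runs of at least 3 adjacent probes that were above background on both arrays of a group held 48 gene body probes in NPC and 37 in ESC, or 35.3% and 27.2%. In the upstream flank such runs held 17.3% of the probes in NPC and 19.8% in ESC, and in the downstream flank 5.51% and 8.66%. Over the whole region there were 17 runs in NPC and 16 in ESC, and 49 probes lay in runs of both. The longest run in NPC had 6 probes. The longest in ESC had 9 probes and spanned 659 bases at 28791361-28792019. Over the whole region, runs held 20.1% of the probes in NPC and 18.6% in ESC, while in the rest of the tile they held 15.2% in NPC and 21.2% in ESC, the opposite order. Across the rest of the tile the longest runs were 20 probes in NPC and 34 in ESC.

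Levels are given as log2 intensity relative to a percentile of each array, explained under the processing, so that 0 is a bright probe and the lowest value an array can give lies between -6.36 and -5.77. The gene body mean was -3.31 and -2.93 in NPC 1 and NPC 2, against -2.94 and -2.89 in ESC 1 and ESC 2. NPC 1 was the lowest and NPC 2 lay between the ESC arrays, so the groups overlapped. The change was -0.20 (SE 0.18, 95% interval -0.68 to 0.27, limma adjusted p = 0.357), which did not pass the test. Across all 963 windows of 5 kb on the array the median change was -0.34, and relative to it the gene body stood at 0.14. That position was 0.36 without NPC 1 and -0.11 without NPC 2. It was 0.03 with a common floor for all arrays and 0 with the authors' deposited values. After normexp correction and quantile normalization it was -0.06.

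The downstream flank averaged -4.33 and -4.47 in NPC 1 and NPC 2, against -3.77 and -3.76 in ESC 1 and ESC 2. The NPC arrays were lower by more than the spread between arrays, with a change of -0.63 (SE 0.13, limma adjusted p = 0.0237). The upstream flank averaged -4.13 and -4.12 in NPC, against -3.61 and -3.71 in ESC, a change of -0.47 (SE 0.13, limma adjusted p = 0.0412). Both flanks were therefore called lower in NPC, in a fit in which 29.4% of the 959 rows were called lower and 22% higher. Relative to the median of all windows the changes were -0.29 downstream and -0.12 upstream. Relative to the median of the windows of the Shh tile they were -0.10 downstream and 0.07 upstream. The downstream change was above that of 29.2% of the other windows of the tile, and the upstream change above that of 70.8%.

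These calls depended on the scaling and on which array was left out. When the largest tile on chromosome 12 was left out of the percentile, the downstream flank changed by -0.42 and the upstream flank by -0.25 (limma adjusted p = 0.126 and 0.260), and with the median of the negative control spots by -0.24 and -0.07 (limma adjusted p = 0.462 and 0.856). Both calls were lost without either ESC array and kept without either NPC array, at changes of similar size. Without ESC 1 the values were -0.64 downstream and -0.42 upstream, and without ESC 2 they were -0.63 and -0.52. Without NPC 1 they were -0.70 and -0.46, and without NPC 2 they were -0.56 and -0.47. Each of these fits has a single array in one group. The gene body turned to 0.01 and 0.19 under the same 2 scalings, was at -0.01 without NPC 1, and was called lower without NPC 2 (-0.39, limma adjusted p = 0.0460).

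Much of the flanking sequence sat at the scanner program's lower limit. In the downstream flank 40.9% and 39.4% of the probes were at this floor in NPC 1 and NPC 2, against 28.3% and 29.1% in ESC 1 and ESC 2. In the upstream flank the floor held 33.3% and 29.6% of probes in NPC, against 27.2% and 30.9% in ESC. The gene body had the fewest, with 18.4% and 6.62% in NPC, against 18.4% and 16.2% in ESC, and NPC 2 stood apart from the other 3 arrays. After scaling the floor itself was lower in NPC by 0.39 on average, so the 38 member probes at the floor on all 4 arrays carried a change of -0.39 with no measured signal behind it.

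With a common floor for all arrays the downstream flank changed by -0.46 and was still called (limma adjusted p = 0.0467), while the upstream flank changed by -0.34 and was not (limma adjusted p = 0.102). Among probes above background on all arrays, the changes were -0.41 downstream, -0.30 in the gene body and -0.46 upstream, and all 3 missed the threshold (limma adjusted p = 0.0827, 0.189 and 0.0599). Of these always detected probes, 31 of 35 downstream, 43 of 62 in the gene body and 21 of 25 upstream had a lower NPC mean. Such counts were not made for the rest of the tile, where 80.4% of all tested probes had a lower NPC mean. Probes of one array share its scaling and are not independent replicates.

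A difference within one array does not move with the array's scaling. The mean of the gene body minus the mean of both flanks was 0.94 and 1.40 in NPC 1 and NPC 2, against 0.77 and 0.85 in ESC 1 and ESC 2. The gene body was the brighter on all 4 arrays, by 2.25-fold on average in NPC and 1.75-fold in ESC (exact sign-flip permutation p = 0.125, two-sided, the smallest that 4 arrays allow). These averages include probes at the floor, a larger share in each flank than in the gene body, so the sizes of these folds were not fully measured. The groups did not overlap, with a difference of 0.36 between NPC and ESC, but p = 0.333 is the smallest that exact permutation of 2 against 2 arrays can give. Without NPC 2 this difference was 0.13, and after normexp correction and quantile normalization it was 0.01.

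In shares, the gene body exceeded the flanks by 20.3 and 31.0 percentage points in NPC 1 and NPC 2, against 15.1 and 17.0 in ESC 1 and ESC 2. Restricted to the probes above background on all arrays, the mean level gap over the 4 arrays was 0.23, against 0.99 over all members. That restriction removes the dim probes of every part, so the smaller gap is a description of the probes that remain. The order of levels on every array was gene body, then upstream flank, then downstream flank. The 2 flanks differed by 0.20 ± 0.12 (SD, n = 4), from 0.06 in ESC 2 to 0.36 in NPC 2.

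Among the 253 other windows of the Shh tile, 81.8% had a lower mean level than the gene body, 60.5% a lower one than the upstream flank and 53.0% a lower one than the downstream flank. The NPC minus ESC value of the gene body was above that of 95.3% of those windows. This rank was not recomputed without NPC 2, where the gene body stood at -0.11 relative to the median of all windows on the array. These ranks are descriptions, since the gene body averages more probes than a window does, and the tile as a whole had a median of -0.53.

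In windows of 5 kb, 7 of the 9 windows in the interval had enough probes to be tested. Over the array 29.6% of windows were called lower in NPC and 21.9% higher (limma, Benjamini-Hochberg). In the Shh tile, 132 of 260 windows were called lower and 0 higher. Of the 7 windows in the interval, 3 were called lower and 0 higher, and the counts at an unadjusted p under 0.05 were also 3 and 0. The called windows lie outside the gene body, at 28765001-28770000 with a change of -0.74 (SE 0.13, limma adjusted p = 0.0161), at 28775001-28780000 with -0.62 (SE 0.13, limma adjusted p = 0.0223), and at 28795001-28800000 with -0.47 (SE 0.13, limma adjusted p = 0.0396). The last of these also takes the probe that ends past the interval. Calls of these windows were lost without either ESC array, and which windows kept a call without either NPC array was not recorded.

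The 3 windows that overlap the gene body were not called, with changes of -0.28, -0.29 and -0.25 (limma adjusted p = 0.109, 0.165 and 0.292). The window at 28760001-28765000 had only 5 probes and levels of -3.39 and -5.06 in NPC 1 and NPC 2, against -3.49 and -2.81 in ESC 1 and ESC 2, so its value of -1.07 (SE 0.62) was poorly measured. Coverage downstream was uneven, with probe-free gaps of 6726 bases at 28757144-28763869 and of 7068 bases at 28767389-28774456.

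A profile in windows of 1 kb, a size chosen after the data had been seen, showed where the signal of the gene body lies. It had 2 crests towards the upstream end. The window at 28791001-28792000 was at -1.98 and -1.55 in NPC 1 and NPC 2, against -1.51 and -1.65 in ESC 1 and ESC 2. The outermost window of the gene, 28793001-28794000, was at -1.99 and -0.80 in NPC, against -1.94 and -1.80 in ESC. NPC 2 was high in that window and the other 3 arrays lay close together. Its change of 0.48 (SE 0.41) did not pass the test (limma adjusted p = 0.375).

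Between these crests, 28792001-28793000 was at -4.85 and -4.24 in NPC 1 and NPC 2, against -3.82 and -4.10 in ESC 1 and ESC 2, as low as the flanks. A further crest stood near the other end of the gene at 28784001-28785000, with -2.72 and -2.35 in NPC, against -2.17 and -2.45 in ESC. Past the upstream edge the level dropped to -3.89 and -4.15 in NPC, against -3.50 and -3.70 in ESC, in the first 1 kb of the flank. Another local maximum lay near the middle of the gene at 28788001-28789000, with -2.87 and -3.01 in NPC 1 and NPC 2, against -2.36 and -2.02 in ESC 1 and ESC 2, and its change of -0.76 (SE 0.25) did not pass the test (limma adjusted p = 0.0651). These 4 local maxima of the gene body and the trough stood at the same places on all 4 arrays.

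Of the 27 windows of 1 kb tested in the region, 1 was called lower and 0 higher (limma, Benjamini-Hochberg over 4216 windows), against 9.16% called lower and 19.9% higher over the array. At an unadjusted p under 0.05 there were 7 lower and 0 higher. The called window, 28777001-28778000, lies in the downstream flank and changed by -0.83 (SE 0.24, limma adjusted p = 0.0458). It was also the brightest 1 kb of that flank, at -3.20 and -3.50 in NPC 1 and NPC 2, against -2.57 and -2.46 in ESC 1 and ESC 2.

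At the level of single probes, 2 of 343 members were called lower in NPC and 0 higher (limma, Benjamini-Hochberg over 47900 probes), where 1.58% of all probes were called lower and 10.7% higher. At an unadjusted p under 0.05 the members gave 25 lower and 1 higher, or 7.29% and 0.292%, against 10.6% and 1.32% in the rest of the tile and 6.92% and 16.9% over the array. The share of members lower was thus close to that of the array. The counts after adjustment changed when 1 array was left out, and the share called over all probes was not computed for those fits. The member with the outlier mark on ESC 1 was not tested. The called gene body probe, 28788946-28789005, had levels of -5.74 and -3.97 in NPC 1 and NPC 2, against -0.36 and -0.54 in ESC 1 and ESC 2. The groups did not overlap, and the fitted change was -4.41 (SE 0.68, limma adjusted p = 0.0303). Only 1 of 2 NPC arrays was above background there, so the size of this change was not fully measured.

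Neighbours of that probe did not share its change. The probe just before it, 28788886-28788945, read 270 and 14.6 in NPC 1 and NPC 2, against 248 and 362 in ESC 1 and ESC 2, where NPC 2 alone was low. The probe just after it, 28789006-28789065, read 6.58 and 23.2 in NPC, against 2.70 and 11.6 in ESC, with the groups overlapping. The other called probe, 28797462-28797521 in the upstream flank, was not well above background on any array, and no fold is given for it.

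The brightest probe of the region was in the gene body at 28791900-28791959. Its intensity was 3560 and 3120 in NPC 1 and NPC 2, against 2580 and 2650 in ESC 1 and ESC 2. Both NPC arrays were above both ESC arrays in raw intensity, yet after scaling the change was 0.19 (SE 0.30, limma adjusted p = 0.690). The probe beside it, 28791840-28791899, read 40.9 and 39.5 in NPC, against 37.4 and 25.4 in ESC, so the brightness did not extend to it.

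The next brightest in the gene body, 28793206-28793265, lies near the upstream edge and read 262 and 444 in NPC 1 and NPC 2, against 471 and 608 in ESC 1 and ESC 2. Its change was -0.81 (SE 0.40, limma adjusted p = 0.350). At 28791421-28791480 the intensity was 262 and 308 in NPC, against 387 and 399 in ESC. The brightest flank probes were 28779359-28779418 downstream, with 646 and 537 in NPC 1 and NPC 2, against 662 and 687 in ESC 1 and ESC 2, and 28795141-28795200 upstream, with 230 and 236 in NPC, against 376 and 544 in ESC. Each of these 4 probes was well above background on every array, and each was lower in both NPC arrays than in either ESC array without passing the test. In scaled levels that pattern was common: 50.1% of the tested members had it, against 57.3% in the rest of the tile and 39.7% over the array. Probes at the floor on every array count among these. The other bright flank probes did not pass the test either. Downstream, 28782848-28782907 read 145 and 466 in NPC 1 and NPC 2, against 288 and 397 in ESC 1 and ESC 2, and 28782008-28782067 read 169 and 183 in NPC, against 193 and 241 in ESC. Upstream, 28794420-28794479 read 253 and 226 in NPC, against 267 and 288 in ESC, and 28796411-28796470 read 185 and 173 in NPC, against 208 and 122 in ESC. The groups overlapped at the first and the last of these.

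A smaller share of gene body probes than of flank probes had a lower NPC mean. The value was below 0 for 86 of 136 in the gene body, 62 of 80 upstream and 111 of 127 downstream, or 63.2%, 77.5% and 87.4%, against 80.4% in the rest of the tile and 58.6% over the array. These counts include the probes at the floor on all 4 arrays, whose value is the shift of the floor. Without them, a choice made after the data had been seen, the value was below 0 for 81 of 131 in the gene body, 50 of 68 upstream and 90 of 106 downstream, with medians of -0.19, -0.47 and -0.53. The shares below 0 were thus 61.8% in the gene body, 73.5% upstream and 84.9% downstream, against 76.3% in the rest of the tile and 52.6% over the array. The medians of the rest of the tile and of the array were then -0.51 and -0.07. The gene body median was the nearest of the 3 to that of the array, and the flank medians were near that of the tile.

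Within the region, arrays did not pair by cell type. Across 343 member probes, Spearman's coefficient was 0.839 between NPC 1 and NPC 2 and 0.876 between ESC 1 and ESC 2. NPC 1 correlated at 0.891 and 0.889 with ESC 1 and ESC 2, above its value with NPC 2. NPC 2 correlated at 0.782 and 0.787 with the ESC arrays. The points share each array's probes and their base composition, probes are not independent replicates, and no test was made. In the rest of the tile NPC 1 was likewise closer to ESC 1 and ESC 2, at 0.847 and 0.865, than to NPC 2, at 0.802.

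Of 956 windows outside the region, the one closest to the gene body mean by Euclidean distance over the 4 arrays was at chromosome 5: 102090001-102095000, outside the Shh tile, with a distance of 0.18 and a change of -0.18. The next were chromosome 13: 63670001-63675000 at 0.22, chromosome 2: 147870001-147875000 at 0.25, chromosome 5: 29800001-29805000 in the Shh tile at 0.26, and chromosome 2: 74600001-74605000 at 0.27. The probes there carry no gene names, so none is given.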

How the data were processed

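Nuclear RNA was read on 4 custom Agilent arrays, 2 per group, grouped by sample title. Per the file headers, Feature Extraction 11.5.1.1 gave the deposited spot intensity, subtracted the background, raised low values to a floor of each array and set the yes or no marks (deposited, unit other). The 60-base probes have mm9 positions. The authors' deposited log2 values, for which the submitters' processing notes name limma without a version, served as an alternative. Their ESC 1 column followed the ESC 2 scanner file more closely than its own (Spearman 0.900 and 0.873), while the other 3 columns followed their own at 1.

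Control spots were left out, as were spots with an outlier mark on the array concerned. Each level is log2 intensity less the 75th percentile, on that array, of the 15356 probes that every array marked well above background. Probes were assigned by their midpoint and averaged per array over each flank, the gene body, or windows of 5 kb with at least 5 probes. The 3 parts were fitted together with the 956 windows outside the region. Differences are NPC minus ESC, tested by moderated linear models (lmFit and eBayes of limma 3.58.1, R 4.3.3) and adjusted by Benjamini-Hochberg over all rows of each fit, with calls at an adjusted p under 0.05. The fit over windows of 5 kb was tested on simulated data whose seeded changes were larger than those of the called windows. That test does not show how well changes of the size called here are found. The number of arrays limits the precision, and slide or scan effects could not be examined on 1 slide with 1 scan.

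The text names the called probes, the 3 brightest probes of each part, every tested window of 5 kb, the 5 most alike windows and, chosen after their values were seen, some windows of 1 kb, the neighbours of 2 of these probes and the probe marked in NPC alone. Members, lists and tests were chosen with earlier results of these data known. Lists of hedgehog pathway and cell type genes were prepared but not placed, since an mm9 annotation was not used here. Normexp used the median spot signal in place of the planned mean signal. Same-numbered arrays were not treated as pairs: their deviations correlated at 0.0375 over windows.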

Additional observations from a re-analysis of the deposited data

How the results depend on the processing

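The common floor, windows of 1 and 10 kb, the exclusion of the brightest probes and the restriction to probes above background on all arrays were chosen after seeing the data. Of 17 alternatives each, the downstream flank kept its call in 12, the upstream flank in 9, and the gene body stayed uncalled and below 0 in 13. For the shifts that follow, the cause was not tested. With the percentile over all probes the gene body was called at -0.59, with 7 windows and 5 probes lower. With the median of the negative control spots the gene body turned to 0.19, the flanks were at -0.24 downstream and -0.07 upstream, 0 windows were lower, and probes gave 1 higher and 1 lower. With the largest chromosome 12 tile left out of the percentile the gene body turned to 0.01, the flanks were at -0.42 and -0.25, and 0 windows were lower. Under these scalings the median of all windows was -0.72, 0.05 and -0.13 in turn. Relative to it the gene body stood at 0.14 in each. Lower windows numbered 5 with normexp, 5 with windows centred on each array's median, 5 with the deposited authors' table, 1 with medians of probes and 1 at 1 kb. Lower probes numbered 8 with normexp, 4 with windows centred on each array's median and 4 with a common floor. Shares called over the array were not computed for the settings in this section, except at 1 kb, where 9.16% of windows were called lower. The upstream flank lost its call with a common floor (-0.34) and with the median over probes (-0.63), and both flanks lost it with probes above background on all arrays (-0.41 and -0.46 downstream and upstream). With the replicate block the upstream flank kept its -0.47 but not its call (limma adjusted p = 0.0872), and 1 probe was lower. With normexp, whose offset compresses log2 changes, the flanks changed by -0.19 and -0.20 and stayed called.

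Fits without 1 of the arrays, in which the single remaining array of a group takes the other group's spread, gave -0.70 to -0.56 downstream, -0.52 to -0.42 upstream and -0.39 to -0.01 in the gene body. Counts of called windows and probes also changed in these fits, and the matching shares over the array were not computed. The gene body minus flanks gap, 0.99 on average over the arrays, ranged from 0.85 to 1.07, and its NPC minus ESC difference from 0.13 (without NPC 2) to 0.59 (without NPC 1). That gap was 1.35 with the median over probes, 0.29 with normexp, 0.59 with the authors' values and 0.23 with probes above background on all arrays, and its group difference was 0.01 with normexp. Above the 95th percentile of the negative control spots, shares were 84.9% in NPC and 77.2% in ESC in the gene body, 67.3% and 66.0% upstream, and 57.1% and 63.4% downstream. Above the 99th percentile they were 55.5% in NPC and 36.0% in ESC in the gene body, 34.6% and 23.5% upstream, and 29.9% and 22.0% downstream, so relative to the scanner mark the order of the groups turned upstream at both limits and downstream at the 99th. With runs of at least 5 probes the counts were 6 in NPC and 4 in ESC. Low intensity limits the flanks, where most probes were not above background.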
